A study of Mus musculus with 12 samples.

Results

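The nuclear-encoded genes of oxidative phosphorylation were examined in the livers of cholestatic mice. They were taken as the table rows whose symbol starts with Nduf, Uqcr, Atp5, Cox4, Cox5, Cox6, Cox7 or Cox8, or is Sdha, Sdhb, Sdhc, Sdhd, Cyc1 or Cycs. Assembly factors (Ndufaf) and pseudogenes were left out. This gave 89 of 16970 genes, of which 84 reached 1 FPKM in at least 3 of the 12 libraries and were tested among 10805 genes. FPKM is fragments per kilobase of gene model and per mapped fragment of the library, scaled by a constant. Complex I had 40 of the genes, complex II 4, complex III 9, complex IV 18 and complex V 17, and Cycs, the electron carrier cytochrome c, stood alone. Ndufa4 and Ndufa4l2 were counted with complex IV, where the Ndufa4 protein resides.

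Liver polyA RNA was sequenced in 4 groups of 3 libraries. MDR_H and MDR were taken as the Abcb4-/- mice of the series description, which lack the phosphatidylcholine transporter of the bile canaliculus. No library title names Abcb4. MDR_H mice were dosed with the bile acid hyodeoxycholic acid (HDCA), 100 mg/kg for 21 days from 60 days of age, and MDR mice had no HDCA. BDL_H and BDL had the bile duct ligated, a surgical block of bile flow. The series description gives 7 days of ligation for the HDCA-treated mice, and BDL was taken to have the same. BDL_H mice had HDCA at 100 mg/kg for 4 days, beginning 3 days after the operation, and BDL mice had none. The sources used here give no strain, sex, vehicle or age of the ligated mice. No label says that replicates were separate animals, so the p-values rest on the spread of these libraries, which may be technical in part. In MDR the FPKM sum of Y-linked genes was 20.15 in replicate 1 and 0 in replicates 2 and 3, so these were not all of 1 animal.

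Oxidative phosphorylation takes place in the mitochondrial inner membrane. Complexes I and II pass electrons from NADH and succinate to ubiquinone, complex III hands them to cytochrome c, complex IV passes them to oxygen, and complex V (ATP synthase) uses the resulting proton gradient to make ATP. A few core subunits are encoded by mitochondrial DNA, and the remainder are made from nuclear genes and imported. Hepatocytes use this ATP for gluconeogenesis, urea synthesis and transport into bile, and hydrophobic bile acids are known to impair respiration in isolated liver mitochondria.

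The libraries held 34260782 to 39386291 recovered reads in the MDR and MDR_H groups and 38338204 to 40427855 in the BDL and BDL_H groups. Abcb4 was at 129.1 to 165.3 FPKM in MDR_H, 150.1 to 181.3 in MDR, 72.1 to 178.4 in BDL_H and 52.8 to 167.8 in BDL. Abcb4 FPKM was therefore not reduced where the knockout is presumed (MDR against BDL log2 difference 0.56 ± 0.41 SE, limma adjusted p = 0.339), and a gene-level FPKM does not show whether a transcribed allele is disrupted. BDL replicate 1 and BDL_H replicate 2 stood apart from their groups, with array weights of 0.134 and 0.171 where the other 10 libraries had 0.533 to 4.88. The summed FPKM of Y-linked genes was 20.2 in MDR replicate 1, at most 0.016 in the other 5 MDR and MDR_H libraries, and 16.1 to 19.6 in the BDL and BDL_H libraries. Differences between the models therefore cannot be told apart from surgery, age, sex and days of HDCA. MDR_H against MDR and the difference of HDCA effects are also unbalanced for sex, through MDR replicate 1.

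These were abundant transcripts with short gene models. Of the 89 genes, 80 averaged at least 10 FPKM over the 12 libraries. Of the 84 tested, 44 averaged at least 100 FPKM, a level that 5.95% of all tested genes reached. The median gene model of the tested members was 785 bases, against 3263 bases for all tested genes. They lay on 19 chromosomes, with 3 on the X. Among the complexes, mean levels per length were lowest in complex I, with a median over its genes of 69.0 FPKM. The corresponding medians were 148.6 in complex II, 170.5 in complex III, 217.4 in complex IV and 177.6 in complex V.

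Atp5b, the catalytic beta subunit of ATP synthase (GRCm38 chromosome 10, 128083307 to 128090388), was the most abundant, at 696 FPKM averaged over the 12 libraries. Next came Ndufa4 at 539 and Cox4i1, the largest nuclear subunit of complex IV, at 531. Ndufb9, an accessory subunit, led complex I at 267.1. Sdha, the flavoprotein that oxidises succinate, led complex II at 156.4, and Uqcrh, the hinge protein beside cytochrome c1, led complex III at 241.6. The lowest genes of these complexes were Sdhc, a membrane anchor, at 121.9, Cyc1, cytochrome c1 itself, at 106.4, and Atp5mpl, a small ATP synthase-associated protein, at 72.2. Cycs averaged 23.6. The lowest gene of complex I was Ndufb4c, a gene related to Ndufb4, at 0.43, and that of complex IV was Cox8b, a heart and muscle isoform in mouse, at 0.073.

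Nuclear respiratory genes are known targets of NRF1, of GABP and other ETS factors, of YY1 and of the estrogen-related receptors (ERR). Words for their motifs were searched on both strands, from 250 bases before to 50 bases after the gene start, in RefSeq windows (GRCm38.p6) that 69 of the 84 tested genes have. The NRF1 word GCGCANGCG was in 30.4% of these members' windows (21 genes) and in 15.4% of the 8705 windows of all tested genes. The YY1 word AAGATGGC was in 14.5% and 5.46%, the ERR word TCAAGGTCA in 2.9% and 0.31%, and the ETS word CCGGAAG in 24.6% and 20.6%. At least 1 of the 4 words was in 58.0% of members and 35.8% of all. A word is a description of the letters and does not show binding.

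Windows of 200 bases upstream of the gene start are shown for Atp5k and Cycs, as examples of the 21 genes with the NRF1 word, for Atp5g3, 1 of the 2 with the ERR word, and for the muscle and liver forms of Cox7a, which hold none of the 4 words in these bases. Words outside these 200 bases, such as an NRF1 word in Atp5g3 and an ETS word in Atp5k, are not shown. Capitals mark the words: overlapping NRF1 words on both strands from -50 in Atp5k (chr5:108434400-108434599, minus strand), an NRF1 word in reverse complement from -61 in Cycs (chr6:50566570-50566769, minus), and an ERR word in reverse complement from -52 in Atp5g3 (chr2:73911327-73911526, minus). Cox7a1 (chr7:30183971-30184170, plus) and Cox7a2 (chr9:79759854-79760053, minus) are in lower case throughout. For Atp5g3 and Cox7a2 the gene start of the promoter table lies inside the outer bounds that RefSeq gives the gene (chromosome 2, 73908447 to 73912464, and chromosome 9, 79755241 to 79771422), so these windows are not upstream of the whole gene.
Atp5k: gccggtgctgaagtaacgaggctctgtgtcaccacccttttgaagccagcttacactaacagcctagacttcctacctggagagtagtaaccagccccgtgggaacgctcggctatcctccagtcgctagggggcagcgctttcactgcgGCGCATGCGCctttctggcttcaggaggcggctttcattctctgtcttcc
Cycs: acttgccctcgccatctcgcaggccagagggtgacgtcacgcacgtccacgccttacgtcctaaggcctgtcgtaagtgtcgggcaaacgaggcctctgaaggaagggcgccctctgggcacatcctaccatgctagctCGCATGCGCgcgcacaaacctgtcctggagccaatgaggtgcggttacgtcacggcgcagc
Atp5g3: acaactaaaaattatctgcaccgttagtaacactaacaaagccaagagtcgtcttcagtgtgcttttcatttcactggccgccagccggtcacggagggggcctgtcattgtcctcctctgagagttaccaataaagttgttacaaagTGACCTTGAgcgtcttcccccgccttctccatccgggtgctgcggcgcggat
Cox7a1: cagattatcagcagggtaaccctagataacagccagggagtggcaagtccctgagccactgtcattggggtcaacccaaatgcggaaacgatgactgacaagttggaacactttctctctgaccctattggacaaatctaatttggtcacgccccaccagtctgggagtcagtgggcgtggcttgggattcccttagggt
Cox7a2: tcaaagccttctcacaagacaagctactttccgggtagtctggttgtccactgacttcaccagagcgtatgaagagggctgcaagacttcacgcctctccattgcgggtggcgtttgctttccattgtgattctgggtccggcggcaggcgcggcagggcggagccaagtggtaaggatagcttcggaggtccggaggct

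HDCA in the ligated livers moved none of these genes past the test. In BDL_H against BDL, limma on log2(FPKM + 1) called 0 of 84 at an adjusted p under 0.05, none had an unadjusted p under 0.05, and limma-voom on recovered reads also called 0. Over all 10805 genes 0.0% were called, with 243 at an unadjusted p under 0.05. The median log2 fold change of the members was 0.035, against 0.032 for all genes, and 56 of 84 were above 0 (58.8% of all genes). With median-of-ratios scaling, however, the members' median was -0.015 and 37 of 84 were above 0 (47.7% of all genes). With array weights 17 members had an unadjusted p under 0.05 and 0 were called. All 3 BDL_H libraries lay above all 3 BDL libraries for 7 members (3.43% of all genes did so), and below them for 1 member (1.59%).

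Atp5b was at 620, 580 and 586 FPKM in BDL_H and at 556, 575 and 581 in BDL. The groups overlapped, with a log2 fold change of 0.06 ± 0.11 (SE; 95% interval -0.18 to 0.30). Ndufs1, the large iron-sulfur subunit of complex I, was at 35.3, 33.7 and 31.3 FPKM in BDL_H and at 31.3, 28.6 and 30.5 in BDL (log2 fold change 0.14 ± 0.10). The 3 members with the smallest p above 0 were Cox7a1 (0.42 ± 0.27), Cycs (0.25 ± 0.17) and Atp5k (0.26 ± 0.19). The 3 with the smallest p below 0 were Ndufs8 (-0.11 ± 0.11), Ndufb4b (-0.19 ± 0.20) and Ndufc2 (-0.14 ± 0.15), and all 6 had a limma adjusted p of 1. The 95% intervals of 72 of the 84 genes lay within 0.5 of 0 on the log2 scale.

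HDCA in the MDR model gave no call either, and the sign of the median depended on the scaling and on which MDR_H libraries were included. In MDR_H against MDR, limma called 0 of 84 members and 0.0% of all genes, limma-voom also called 0 members, and 1 member had an unadjusted p under 0.05 (61 of all genes did). The median log2 fold change was -0.024, against -0.037 for all genes, and 32 of 84 were above 0 (36.0% of all genes). With median-of-ratios scaling the members' median was 0.019 and 50 of 84 were above 0 (49.7% of all genes). The MDR_H libraries lay wholly above the MDR libraries for 1 member (1.35% of all genes) and wholly below for 2 (4.6%). Without MDR_H replicate 1 the members' median was -0.151 (all genes -0.056) and 2 of 84 were above 0 (32.5% of all genes). In that fit 11 members had an unadjusted p under 0.05, with 0 called. Without MDR_H replicate 2 the median was 0.068, and without MDR_H replicate 3 it was 0.024.

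MDR_H replicate 1 held the highest value of 69 of the 84 genes among the 12 libraries, and the share of all genes highest there was not counted. Atp5b was at 840, 735 and 809 FPKM in MDR_H and at 835, 800 and 833 in MDR (log2 fold change -0.05 ± 0.11, 95% interval -0.29 to 0.18). Ndufa4 was at 861, 536 and 557 in MDR_H and at 616, 636 and 578 in MDR (0.06 ± 0.17), so its MDR_H values lay on both sides of the MDR group. The same library also had the highest median of the cytosolic ribosomal protein genes, at 8.17 on the log2(FPKM + 1) scale where the other 11 libraries had 7.43 to 7.79, and the fewest recovered reads of the 12. The part of these in the result was not tested. Between libraries of the same replicate number the members' median difference, MDR_H minus MDR, was 0.225, -0.197 and -0.081 for numbers 1, 2 and 3. The number 1 libraries also differed in Y-linked FPKM (20.15 in MDR and 0.016 in MDR_H).

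**Figure D1:**
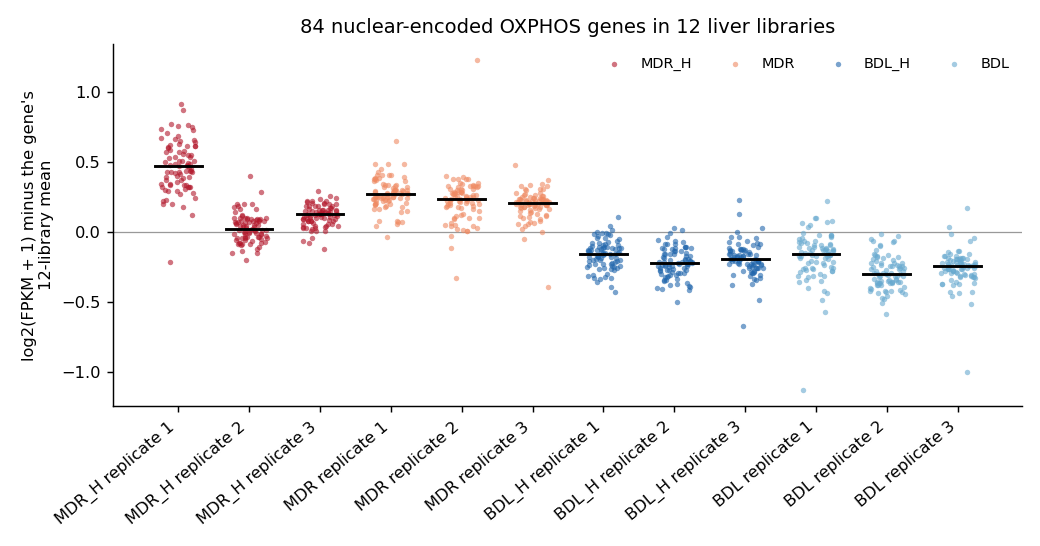
Each point is 1 of the 84 tested genes in 1 library, as log2(FPKM + 1) minus that gene's mean over the 12 libraries (y axis), and black bars are medians. The MDR_H and MDR medians all lie above the BDL_H and BDL medians on the FPKM scale as deposited, and MDR_H replicate 1 stands highest.

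Ndufs6b, a gene related to the zinc-binding complex I subunit Ndufs6, was the member with the unadjusted p under 0.05. It was at 12.5, 10.6 and 8.88 FPKM in MDR_H and at 8.94, 6.54 and 6.23 in MDR, which overlap between the lowest MDR_H and the highest MDR library. Its log2 fold change was 0.50 ± 0.17 (unadjusted p = 0.0115, limma adjusted p = 1), while Ndufs6 itself differed by 0.07 ± 0.13. Reads may be shared between the related genes, which the table does not show. Ndufa11, a complex I membrane subunit, was at 22.5, 20.6 and 18.9 FPKM in MDR_H and 18.9, 16.4 and 18.6 in MDR, and was not called (0.19 ± 0.10). Ndufa6 (0.10 ± 0.15), Ndufa4l2 (-0.25 ± 0.15), Ndufs3 (-0.20 ± 0.13) and Ndufv1 (-0.16 ± 0.12) complete the smallest p-values in each direction, none called.

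The difference between the HDCA effects, MDR_H minus MDR less BDL_H minus BDL, was tested for each gene. limma called 0 of 84 members and 0.0% of all genes, with 0 members and 200 of all genes at an unadjusted p under 0.05. The median was -0.082 for the members and -0.071 for all genes. The median was -0.203 without MDR_H replicate 1 (12 members at an unadjusted p under 0.05), -0.191 with array weights (18 members), 0.018 without MDR_H replicate 2 and 0.009 with median-of-ratios scaling, with 0 members called in each. The lowest member was Cox7a1, at -0.74 ± 0.38. The 95% intervals of 29 of 84 members lay within 0.5 of 0, and those of the others reached further. Doses were equal, but HDCA was given for 21 days in one model and 4 in the other.

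**Figure D2:**
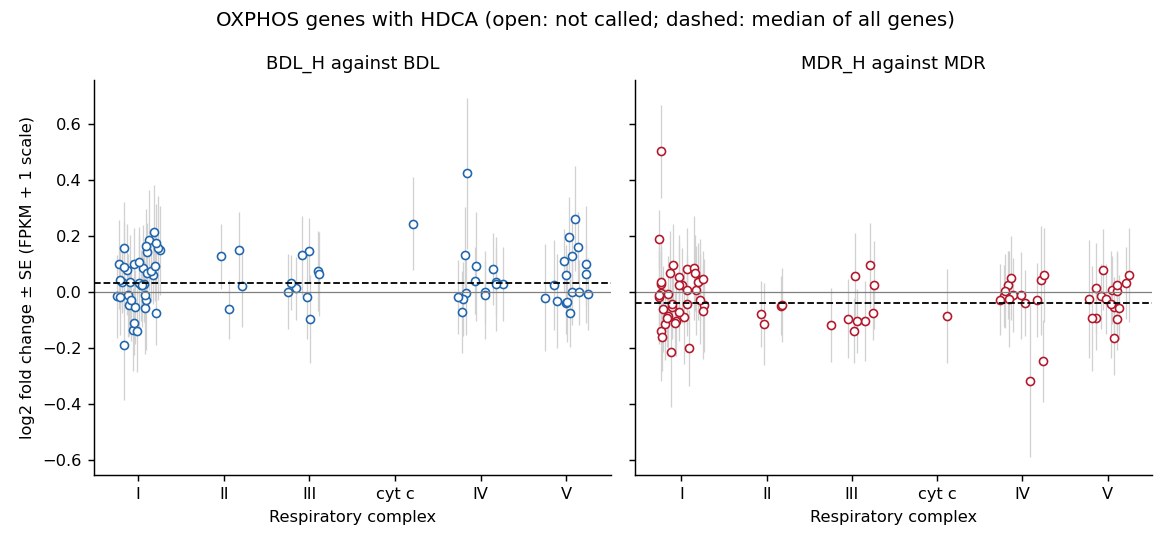
Log2 fold changes with HDCA, with SE bars, for the tested genes by complex (x axis), in BDL_H against BDL (left) and MDR_H against MDR (right). All points are open because none was called, and the dashed lines are the medians of all genes, 0.032 and -0.037.

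Between the models many of these genes differed. In MDR against BDL, 47 of 84 genes were called higher and 0 lower on the FPKM scale as deposited (limma adjusted p under 0.05). None of the 4 groups was healthy liver, so these values cannot tell whether one model was raised or the other lowered. Below, genes said to have risen or fallen are those called higher or lower in the first group named. On that scale 15.1% of all genes were called higher and 1.07% lower. But with median-of-ratios scaling 1 of 84 was called, where 5.92% of all genes were called higher and 486 of 10805 lower. As deposited, 73 members had an unadjusted p under 0.05, all of them higher. Of all 10805 genes 3708 did, 3434 of them higher. limma-voom called 46 members higher and 0 lower, where 13.6% of all genes were called higher. The members' median log2 fold change was 0.478, against 0.252 for all genes. The MDR libraries lay wholly above the BDL libraries for 78 of 84 members (39.2% of all genes) and wholly below for 0 (3.12%). In MDR_H against BDL_H, 21 of 84 rose and 0 fell as deposited, where 7.36% of all genes were called higher and 0.935% lower. None was called with median-of-ratios scaling, where 3.08% of all genes were called higher and 372 of 10805 lower. As deposited, 69 members had an unadjusted p under 0.05, all higher, as did 3060 of all genes, 2734 of them higher. limma-voom called 13 members higher and 0 lower, where 5.41% of all genes were called higher. The median was 0.401, against 0.196 for all genes, and 71 members were higher with no overlap (32.4% of all genes) and 0 lower (4.55%).

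The scaling set much of this. The 10 most abundant genes of a library took 14.4 to 18.01% of its reads in the MDR and MDR_H groups and 19.1 to 21.4% in the BDL and BDL_H groups. Scaling by the median of ratios moved the all-gene median of MDR against BDL to -0.050 and the members' median to 0.114. It divided each library by a factor, 0.739 in BDL replicate 1 and 0.768 in BDL_H replicate 2, the libraries that stood apart. Factors were 0.938 to 1.009 in the other BDL and BDL_H libraries and 1.065 to 1.218 in MDR and MDR_H. No fit with this scaling left those libraries out, so their part in the lost calls was not tested. Quantile normalization called 16 members higher, where 5.07% of all genes were. The members' median thus exceeded that of all genes by 0.226 as deposited, 0.164 with median-of-ratios scaling and 0.340 with quantile normalization. In MDR_H against BDL_H the excess was 0.205, 0.154 and 0.247. With median-of-ratios scaling 68 of 84 members were above 0 in MDR against BDL, where 42.7% of all genes were.

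**Figure D3:**
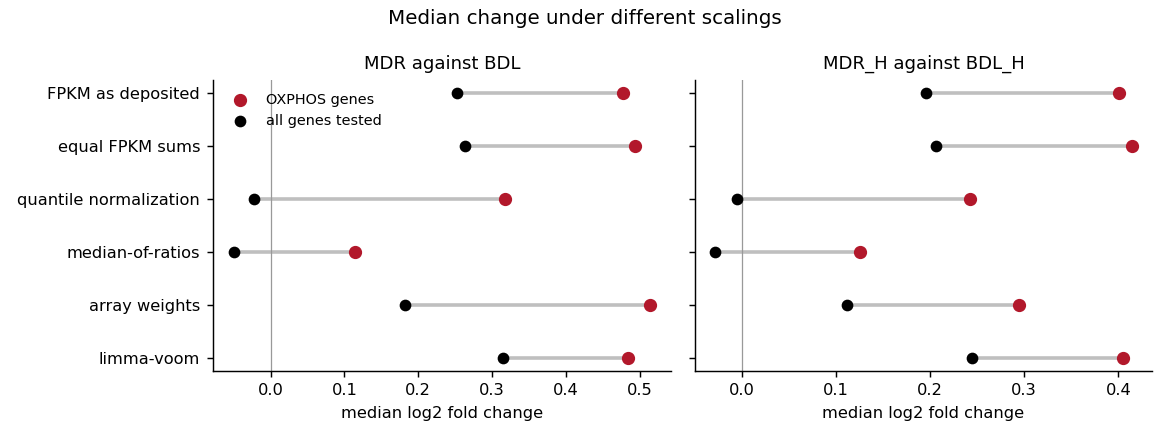
Median log2 fold change (x axis) of the 84 OXPHOS genes (red) and of all tested genes (black) in MDR against BDL (left) and MDR_H against BDL_H (right), under 6 ways of scaling or weighting (rows). The red point lies right of the black in each row, while the black point sits near 0 with median-of-ratios scaling and quantile normalization.

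Calls also depended on single libraries, among all genes as well as among the members. Parentheses give the share of all genes called higher in the same fit. The count of 47 for MDR against BDL (15.1%) was 10 without MDR replicate 2 (4.18%), 11 without BDL replicate 2 (7.52%) and 13 without MDR replicate 3 (5.79%). It was 20 without MDR replicate 1 (11.9%), 22 without BDL replicate 3 (14.9%) and 52 without both libraries that stood apart (17.3%). The count of 21 for MDR_H against BDL_H (7.36%) was 0 without MDR_H replicate 1 (2.0%), 2 without MDR_H replicate 3 (1.95%) and 5 without MDR_H replicate 2 (1.33%). It was 1 without any of the BDL_H replicates 1, 2 or 3 (3.11%, 1.76% and 3.86%). Without any of the MDR libraries, BDL replicate 2 or BDL replicate 3 it was 5 to 10 (4.04% to 6.63%). The medians moved less, between 0.458 and 0.509 in MDR against BDL and between 0.274 and 0.473 in MDR_H against BDL_H, the lowest being without MDR_H replicate 1. All 84 genes had their highest value in an MDR or MDR_H library. The share of all genes that did so was not counted, but 83.6% were above 0 in MDR against BDL and 77.0% in MDR_H against BDL_H. For 64 of the 84, all 6 MDR and MDR_H libraries lay above all 6 BDL and BDL_H libraries, a split that 19.4% of all tested genes showed.

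In complex I, the entry point for NADH, 22 of 39 tested genes rose in MDR against BDL and 10 rose in MDR_H against BDL_H. This and the counts of the other complexes are as deposited, where 15.1% and 7.36% of all genes were called higher. With median-of-ratios scaling Cox7a1, in MDR against BDL, was the only member called. Ndufv1, which binds NADH and the flavin, was at 85.5, 72.5 and 73.2 FPKM in MDR and 55.9, 46.9 and 44.9 in BDL, with no overlap. Its log2 fold change was 0.64 ± 0.12 (limma adjusted p = 0.0082). Ndufs1 was at 45.3, 43.1 and 42.3 in MDR and 31.3, 28.6 and 30.5 in BDL (0.52 ± 0.10, adjusted p = 0.0096). Ndufa9, an accessory subunit, was called in MDR against BDL (0.47 ± 0.11) and not in MDR_H against BDL_H (0.32 ± 0.11). Ndufb2, in the membrane arm, was at 35.2, 35.7 and 31.6 FPKM in MDR and 20.02, 19.7 and 21.2 in BDL (0.72 ± 0.16, limma adjusted p = 0.0141). Ndufb9 was higher by 0.66 ± 0.17 (adjusted p = 0.0238). Ndufb4 and Ndufb5, also of the membrane arm, led MDR_H against BDL_H at 0.75 ± 0.15 and 0.62 ± 0.15. Ndufb4 was at 146, 104 and 108 FPKM in MDR_H and 71.5, 73.5 and 65.3 in BDL_H. Ndufs6b was the member that was not higher in MDR than in BDL (-0.08 ± 0.17, not called).

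All 4 genes of complex II, the succinate dehydrogenase shared with the tricarboxylic acid cycle, rose in MDR against BDL, and Sdhc rose in MDR_H against BDL_H. The shares of all genes called higher were 15.1% and 7.36%. Sdha was at 201, 180 and 181 FPKM in MDR and 110, 134 and 132 in BDL (log2 fold change 0.58 ± 0.12, limma adjusted p = 0.0101). Sdhb, the iron-sulfur subunit, was at 198, 191 and 188 in MDR and 137, 116 and 117 in BDL (0.64 ± 0.145). Neither pair of groups overlapped.

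In complex III 4 of 9 genes rose in MDR against BDL (15.1% of all genes) and 2 of 9 (Uqcrc2 and Uqcrb) in MDR_H against BDL_H (7.36%). Cyc1 was at 139.6, 123.5 and 118.9 FPKM in MDR and 86.2, 85.5 and 87.2 in BDL (0.55 ± 0.12, limma adjusted p = 0.012). Uqcrfs1, the Rieske iron-sulfur protein, differed by 0.52 ± 0.13. Uqcrc1, a core protein of the matrix side, was not called (0.34 ± 0.11, adjusted p = 0.0621) and was at -0.028 with median-of-ratios scaling. Cycs was at 26.1, 30.7 and 27.3 FPKM in MDR and 17.2, 16.5 and 20.1 in BDL, and rose by 0.62 ± 0.17 (limma adjusted p = 0.0307). In the treated groups it was at 35.4, 21.8 and 23.6 in MDR_H and 19.6, 23.3 and 21.2 in BDL_H, which overlap.

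In complex V 10 of 17 genes rose in MDR against BDL (15.1% of all genes) and 5 rose in MDR_H against BDL_H (7.36%). Atp5b was higher by 0.53 ± 0.11 untreated (limma adjusted p = 0.0106) and 0.41 ± 0.11 treated (adjusted p = 0.0421), with no overlap in either. Atp5a1, the alpha subunit, rose untreated (0.43 ± 0.11) and was not called treated (0.23 ± 0.11), and Atp5d, the delta subunit of the stalk, was called in neither (0.21 ± 0.11 and 0.16 ± 0.11). Atp5k, subunit e of the dimer interface, was at 215, 190 and 199 FPKM in MDR and 103, 102 and 129 in BDL (0.85 ± 0.19, adjusted p = 0.0143). Atp5e, the epsilon subunit, was higher by 0.72 ± 0.21 (adjusted p = 0.0404). Atp5mpl was called in MDR_H against BDL_H (0.60 ± 0.17, limma adjusted p = 0.0499). The 3 genes that encode the same mature c-ring subunit had different values: in MDR against BDL Atp5g3 was called (0.49 ± 0.13), and Atp5g1 (0.38 ± 0.12) and Atp5g2 (0.13 ± 0.12) were not. These differences between the 3 genes were not tested.

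**Figure D4:**
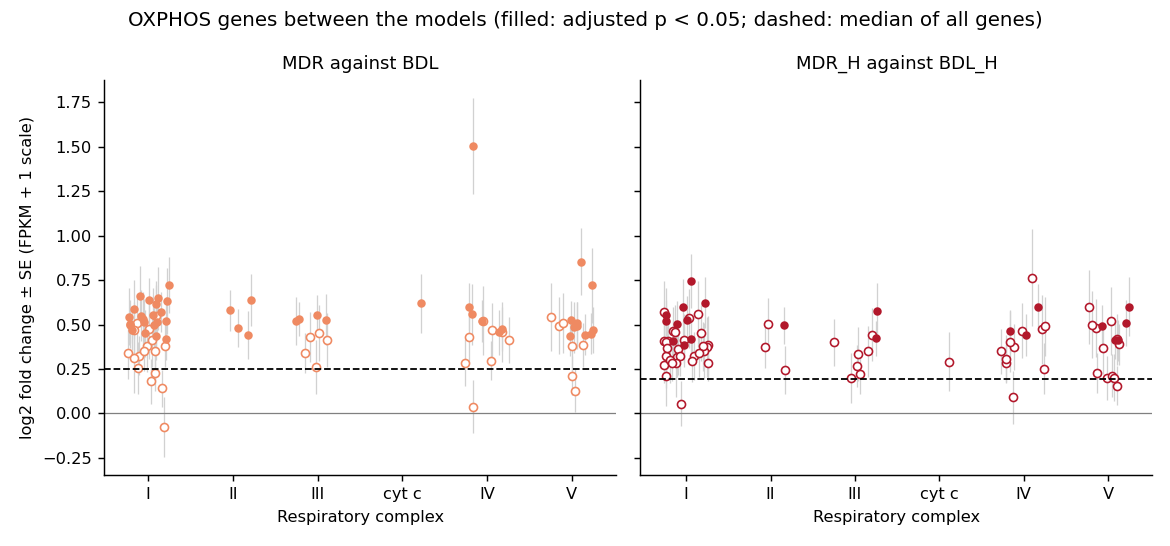
Log2 fold changes as deposited, with SE bars, for the tested genes by complex (x axis), in MDR against BDL (left) and MDR_H against BDL_H (right). Filled points were called (47 and 21 genes), open points were not, and dashed lines are the medians of all genes, 0.252 and 0.196. The highest point on the left is Cox7a1.

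In complex IV 6 of 14 tested genes rose in MDR against BDL (15.1% of all genes) and 3 rose in MDR_H against BDL_H (7.36%). Cox4i1 was at 623, 594 and 615 FPKM in MDR and 459, 441 and 418 in BDL, with no overlap (0.47 ± 0.12, limma adjusted p = 0.0254). Cox5a was higher by 0.52 ± 0.12, and Cox7c, a small subunit, by 0.60 ± 0.13 in both comparisons. Cox7a2l, which joins complexes III and IV into supercomplexes, was at 91.5, 101 and 90.7 in MDR and 97.2, 82.6 and 96.3 in BDL. Its groups overlapped and its log2 fold change was 0.04 ± 0.15, with a 95% interval of -0.29 to 0.36. Cox6a1 (0.30 ± 0.11), Cox8a (0.29 ± 0.13), Cox7b (0.47 ± 0.16) and Ndufa4 (0.46 ± 0.17) were not called, while Cox6b1 was (0.46 ± 0.13).

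Cox7a1, the heart and muscle form of subunit 7a in mouse (GRCm38 chromosome 7, 30184171 to 30186030), had the largest log2 change among the 84 genes in MDR against BDL. It was at 3.38, 5.52 and 2.45 FPKM in MDR and 0.28, 1.41 and 0.40 in BDL (1.51 ± 0.27, limma adjusted p = 0.0064). With median-of-ratios scaling it was the gene still called. In the treated groups it was at 3.04, 2.68 and 2.42 in MDR_H and 1.51, 1.36 and 0.75 in BDL_H, with no overlap and no call (0.76 ± 0.27, adjusted p = 0.0965). The liver form Cox7a2 was at 161.3, 141.0 and 133.0 FPKM in MDR and 97.1, 94.1 and 102.9 in BDL (0.56 ± 0.17, adjusted p = 0.0488), so Cox7a1 stayed a minor transcript per length in every library.

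The other minor isoforms except Ndufa4l2 were below the level for testing. Cox6a2, also a heart and muscle form in mouse, was at 0.40, 0.53 and 0.73 FPKM in MDR_H, 0.30, 0.36 and 0.24 in MDR, 0, 0.11 and 0.07 in BDL_H and 0.04, 0 and 0.08 in BDL, from at most 19 reads. Cox4i2, a lung form induced by low oxygen, was at 0.66, 0.85 and 0.52 in MDR and 0.35, 0.03 and 0 in BDL. Cox8b had at most 4 reads in any MDR_H or MDR library and 0 reads in all 6 BDL_H and BDL libraries, where a count of 0 allows up to 3 reads, so no fold is given. Cox6b2, the testis form, was at 0.04 to 0.94 FPKM with overlapping groups. Ndufa4l2, a paralogue induced by low oxygen, was at 2.45, 2.53 and 2.35 in MDR and 1.95, 1.26 and 1.51 in BDL and was not called (0.43 ± 0.15, limma adjusted p = 0.0648).

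**Figure D5:**
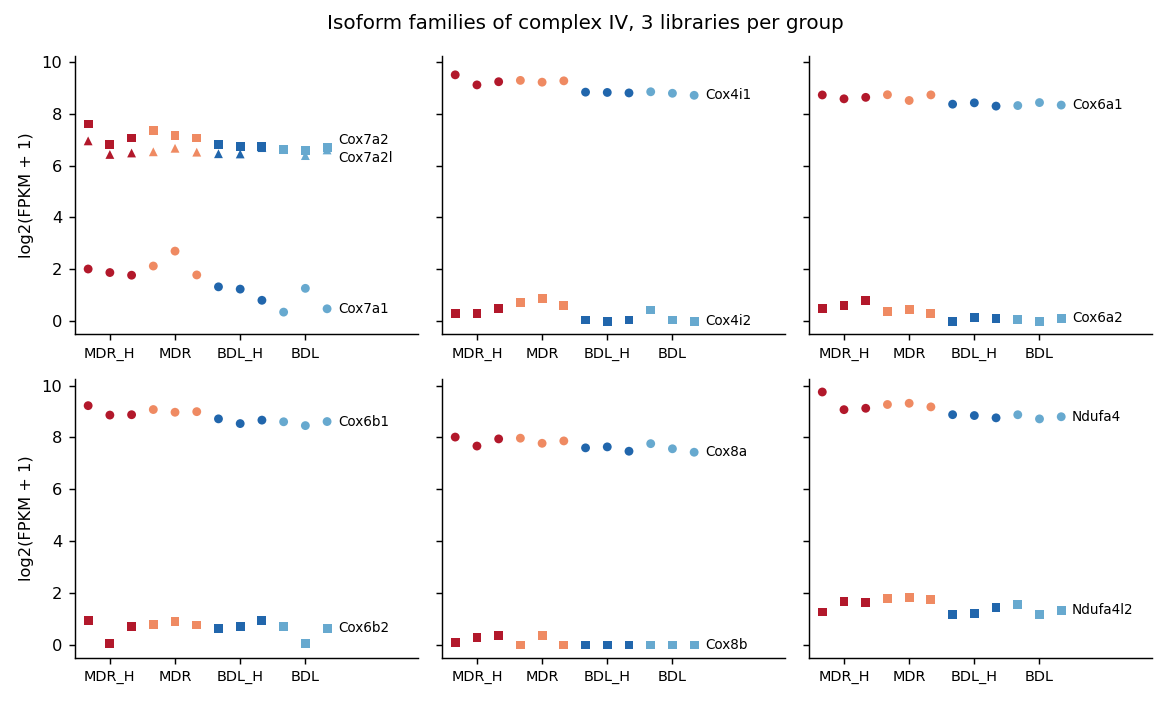
Log2(FPKM + 1) on the y axis for the isoform families of complex IV in the 3 libraries of each group (x axis, coloured by group). In each panel the major form lies far above its minor form in all 12 libraries, and Cox7a1 and Cox6a2 are higher in the MDR_H and MDR libraries than in all 6 BDL_H and BDL libraries.

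Of the markers of striated muscle, 4 were at or near 0. Ckm, Acta1, Tnnt3 and Myh4 were at 0 FPKM in all 6 BDL_H and BDL libraries and at most 0.15 in any MDR_H or MDR library. Mylpf, the 1 gene of that list that was tested, was present at a low level in all 12 libraries. On the log2(FPKM + 1) scale it ran from 0.32 in BDL_H replicate 2 to 1.11 in MDR_H replicate 3. It was not called in MDR against BDL (0.15 ± 0.22). Stellate cell and fibroblast markers were higher, with 8 of 10 called in MDR against BDL and a median log2 fold change of 1.63, among them Dcn at 126.9, 231.2 and 178.4 FPKM in MDR and 37.0, 48.6 and 63.7 in BDL. Summed FPKM of that list was 316.5 to 433.7 in MDR_H, 256.6 to 505.6 in MDR, 137.8 to 237.4 in BDL_H and 70.5 to 138.4 in BDL. Of cholangiocyte markers 6 of 8 were called higher (median 1.19), of endothelial markers 5 of 10 (median 1.13) and of hepatocyte markers 0 of 12, with 1 lower (Apoa1) and a median of -0.24. Of the immune and blood lists, 3 of 3 lymphocyte markers (median 1.00), 3 of 5 erythroid markers (1.16), 1 of 12 macrophage and Kupffer cell markers (0.55) and 0 of 5 neutrophil markers (-0.24) were called higher. Beside these, 15.1% of all tested genes were called higher, with a median of 0.252. The shares of macrophage (8.33%), hepatocyte and neutrophil markers called higher lie below that and are not a result about these lists. In MDR_H against BDL_H, 7.36% of all genes were called higher. There 6 of 10 stellate cell and fibroblast, 5 of 8 cholangiocyte and 1 of 12 macrophage and Kupffer cell markers were called higher. No marker of the other lists was, and 1 neutrophil marker was called lower. The endothelial median was 0.328. In BDL the endothelial markers summed to 30.84 FPKM in replicate 1, 91.4 in replicate 2 and 134.8 in replicate 3. In whole liver a different share of cells and a different amount of RNA per cell cannot be told apart, and the part of these markers in the changes above was not tested.

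Genes that build or serve the complexes were counted in the same way in MDR against BDL as deposited, with the all-gene shift of 0.252 included in each median and 15.1% of all tested genes called higher. Of complex I assembly factors 3 of 17 rose (median log2 fold change 0.31), among them Ndufaf2 (0.47 ± 0.14, limma adjusted p = 0.0452). Of the assembly factors of complexes II, III and V 3 of 12 rose (0.34), led by Uqcc2, needed for complex III (0.72 ± 0.17), and of those of complex IV 4 of 19 (0.33), among them Cox14 (0.67 ± 0.16). Of tricarboxylic acid cycle genes 7 of 18 rose (0.36), among them Idh3b (0.64 ± 0.10) and Pdha1, of the pyruvate dehydrogenase complex that feeds the cycle (0.59 ± 0.09). Of carriers, quinone synthesis and other inputs 7 of 21 rose (0.36), among them Slc25a4, the heart and muscle ADP/ATP carrier (1.24 ± 0.29). Slc25a4 was at 9.56, 20.9 and 16.0 FPKM in MDR and 5.25, 5.06 and 6.86 in BDL. Of mitochondrial ribosomal proteins 11 of 78 rose (0.26), and of mitochondrial import genes 0 of 22 (0.16), cytosolic ribosomal proteins 0 of 89 (0.20) and proteasome genes 0 of 48 (0.14). The shares of complex I assembly factors (17.6%), complex IV assembly factors (21.1%) and mitochondrial ribosomal proteins (14.1%) lie near the 15.1% of all genes and are not a result about these lists. In the import, cytosolic ribosome and proteasome lists 4, 3 and 1 genes had an unadjusted p under 0.05. limma called none of these lists' genes lower. Whether the lists differ from the subunits was not tested.

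Regulators of mitochondrial gene expression were not called in either model comparison. limma called 0 of 11 in MDR against BDL (median 0.24, with 3 higher and 1 lower at an unadjusted p under 0.05) and 0 of 11 in MDR_H against BDL_H (2 at an unadjusted p under 0.05). Of all 10805 tested genes 15.1% and 7.36% were called higher, and 3708 and 3060 had an unadjusted p under 0.05. With 11 genes tested, the absence of calls is not a result about this list. Gabpa, a subunit of GABP, was at 9.41, 11.45 and 8.91 FPKM in MDR and 7.11, 6.96 and 8.08 in BDL, without overlap (0.38 ± 0.13, limma adjusted p = 0.066). Esrra, which encodes ERR alpha, was at 12.1, 12.5 and 12.3 in MDR and 10.3, 6.65 and 6.87 in BDL (0.60 ± 0.21, adjusted p = 0.0755), and Tfam, the mitochondrial transcription factor, differed by 0.24 ± 0.13. The lower one was Pprc1, a coactivator related to Ppargc1a, at 2.18, 1.51 and 1.87 FPKM in MDR and 1.93, 5.33 and 3.65 in BDL, which overlap (log2 fold change -0.64, not called). It was chosen after its values were seen. Ppargc1a and Ppargc1b, coactivators of these factors, and Nrf1 stayed under 1 FPKM in all 12 libraries. Members with the NRF1 word had a median log2 fold change of 0.44 in MDR against BDL, and those without it 0.48. Transcripts encoded by mitochondrial DNA were not analysed here.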

How the data were processed

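Per the labels' protocols, TRIzol was used on liver and polyA libraries were made with a VAHTS Universal V6 kit. The submitters' processing notes list the build GRCm38 (mm10), the counter featureCounts 1.5.0-p3, the aligner HISAT2 2.0.5, and also DESeq2 1.20.0, fastp and CASAVA 1.8. Use of strand in counting is not given in the sources used here. The authors deposited FPKM values for 16970 genes in 12 libraries. Groups came from the titles.

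FPKM steps gave back whole reads for 16968 genes (99.99%) within 0.02 of a read, 34260782 to 40427855 per library. Values were tested as log2(FPKM + 1), which understates changes of low genes, with limma 3.58.1 (R 4.3.3), trend and 4 group means (8 residual degrees of freedom), two-sided, with Benjamini-Hochberg adjustment over the 10805 genes with FPKM of at least 1 in at least 3 libraries. Alternatives were other scalings, pseudocounts, filters, weights, limma-voom, a replicate block and leaving out libraries. Intervals and read limits cover counting or between-library error only.

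The members and the gene lists were chosen with earlier results of these data known. Named genes are core subunits, isoform families, the highest and lowest gene of each complex, up to 5 called genes of largest change without overlap per comparison and direction (the 3 smallest p where none was called), up to 2 genes per other list and key regulators. Some results this rule names are not reported here. Slc25a4's values, Dcn, Ndufs6, Uqcrb and marker values of muscle were chosen after they were seen. Positions and promoters are RefSeq GRCm38.p6.

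Same-numbered libraries of MDR_H and MDR deviated together from their group means (r = 0.438, 0.312 and 0.548), so their numbers may mark pairs, from the values alone. The number 1 libraries differed in Y-linked FPKM (20.15 in MDR and 0.016 in MDR_H). In the other comparisons not every same-numbered pair deviated together (r = -0.43, -0.382 and 0.431 for BDL_H and BDL), so their numbers were not taken as pairs. The main fit was unpaired, and the replicate block used the numbers of all 12 libraries. No test paired MDR_H and MDR alone.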

Additional observations from a re-analysis of the deposited data

How the results depend on the processing

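For HDCA, no member was called under any alternative run. Leaving out 1 library gave medians of 0.007 to 0.070 in BDL_H against BDL and -0.151 to 0.068 in MDR_H against MDR. Median-of-ratios scaling turned the sign of both medians, to -0.015 and 0.019, and array weights gave medians of 0.094 and -0.086, with 17 and 3 members at an unadjusted p under 0.05. In MDR against BDL, leaving out 1 library gave 10 to 67 called members and medians of 0.458 to 0.509, where 4.18% to 20.1% of all genes were called higher. In MDR_H against BDL_H it gave 0 to 29 and 0.274 to 0.473, where 1.33% to 12.7% of all genes were called higher. Median-of-ratios scaling gave 1 call and a median of 0.114 in MDR against BDL, and 0 calls and 0.126 in MDR_H against BDL_H. Of all genes 5.92% and 3.08% were then called higher. Quantile normalization gave 16 calls and 0.318, and 6 calls and 0.242, where 5.07% and 3.52% of all genes were called higher. Array weights gave 80 calls, where 38.9% of all genes were called higher, and 46 calls with a median of 0.294, where 20.2% were. In MDR_H against BDL_H, limma-voom gave 13 calls (5.41% of all genes called higher) and a fit to only the libraries compared 2 (4.29%). The replicate block gave 45 calls in MDR against BDL (11.6% of all genes) and 10 in MDR_H against BDL_H (4.84%). In these 2 comparisons the numbers do not pair the libraries. The block gave 0 calls in both HDCA comparisons. The cause of these changes was not tested. Equal FPKM sums, added after seeing the data, gave 56 and 24 calls in MDR against BDL and MDR_H against BDL_H. Of all genes 14.1% and 6.53% were then called higher.

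Among 41 single-gene results, leaving out 1 library kept direction and call in 388 cases, lost a call in 101 and turned 3, and the other alternatives kept 379, lost 61, gained 3 and turned 3. The turned values were uncalled: Ndufa6 in MDR_H against MDR (-0.055 without MDR_H replicate 1, and up to 0.204 without another library), Ndufb4b in BDL_H against BDL (0.044 with array weights), Uqcrc1 in MDR against BDL (-0.028 with median-of-ratios scaling) and Ndufs6b in MDR against BDL (0.023 without BDL replicate 1, and without it and BDL_H replicate 2, 0.010 without MDR replicate 3, and down to -0.22 without another library). Depth limits the minor isoforms, which had at most 109 reads (Ndufa4l2) in a library.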

Other observations

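Ndufb4, a membrane-arm subunit of complex I, has 2 related genes in the table, Ndufb4b and Ndufb4c, whose reads may be shared with it. Ndufb4b was at 3.28, 1.93 and 1.99 FPKM in MDR_H, 2.64, 2.55 and 3.53 in MDR, 1.58, 1.54 and 2.15 in BDL_H and 2.44, 1.43 and 2.65 in BDL, with overlap in MDR against BDL and no call (log2 fold change 0.31 ± 0.20). Ndufb4c was at 0 to 0.94 FPKM with overlapping groups and was not tested.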
